A study of Mus musculus with 6 samples.

Results

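Group 2 innate lymphoid cells (ILC2) that had been cultured with cytokines after isolation from mesenteric lymph nodes (MLN) were compared with ILC2 taken directly from the thymus. The comparison used 4 of the 6 libraries of the study, 2 cultured MLN and 2 thymus, chosen by their labels, and covered the full gene table. The other 2 libraries, from MLN cells that were not cultured (fresh MLN), are given beside the contrast as the same organ before culture. Every animal carried an Id1 transgene on both alleles (Id1tg/tg), driven by the lck proximal promoter, made in FVB/N mice and backcrossed to C57BL/J. The labels describe these mice as lacking T cell development and as having more thymic ILC2. The labels give neither age nor sex. Cells had been sorted as Lin-Thy1+ST2+, and about 300000 entered each sample. Cultured cells had spent 1 week with IL-33, IL-25 and IL-7, each at 10 ng/ml. The labels state no second sort after that week. Organ and culture both differ between the groups and cannot be told apart in this contrast.

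ILC2 are tissue lymphocytes that lack antigen receptors on the cell surface, depend on GATA3 and RORα, and respond to alarm cytokines. IL-33 acts through ST2 (Il1rl1), IL-25 through IL-17RB, and IL-7 through IL-7R and STAT5. Activated ILC2 divide and secrete IL-5, which supports eosinophils, and IL-13, which acts on epithelium and mucus. Id proteins bind E proteins such as E2A and HEB and keep them off DNA, and lymphoid progenitors with low E protein activity can become innate lymphoid cells.

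Library totals were 37035291 and 40578264 reads counted to genes in cultured MLN, 37799166 and 35280692 in thymus, and 37223939 and 36103469 in fresh MLN. Levels are CPM, counts relative to library totals scaled with TMM, and fold changes are cultured MLN over thymus. A gene was called when its adjusted p was under 0.05 in edgeR's quasi-likelihood test with Benjamini-Hochberg adjustment over the 16231 genes tested. In this contrast 11793 genes (72.7%) were called, 5654 higher in cultured cells (34.8%) and 6139 lower (37.8%). These are the shares to set beside each count of list members below, and a list near them does not stand out. With library totals alone as scaling, the split was 4254 higher and 7880 lower, and the median of all genes moved by -0.258 on the log2 scale. A test against a 2-fold change called 2429 genes higher (15%) and 2026 lower (12.5%). Log2 CPM of the 2 libraries of a group correlated across genes with r = 0.9942 in cultured MLN and 0.9938 in thymus, and pairs of libraries between the groups with r from 0.8350 to 0.8354. The labels do not say that the 2 libraries of a group came from separate animals or cultures, so a p value speaks to the spread from library to library alone. These are bulk samples, in which fewer cells of a type and less RNA per cell cannot be told apart.

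The labelled cell type was checked first. Gata3 was at 1034 and 1064 CPM in cultured MLN and 648 and 673 CPM in thymus. Il1rl1, which encodes the ST2 used in the sort, was at 2289 and 2342 CPM against 1457 and 1444 CPM. Both genes were 1.6 times as high in cultured cells, with groups that did not overlap, as in 86% of the genes tested. Thy1, also used in the sort, ran the other way, at 107 and 119.6 CPM against 726 and 736 CPM, a 6.46-fold lower level. Cd8a, a transcript that a lineage-negative gate should lack, was scarce, with 2 counts over cultured MLN and 46 over thymus. Cd3e stood apart from it, with 43.2 and 47.6 CPM in cultured cells and 73.9 and 72.8 CPM in thymus.

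Id1 was measured next because each animal carried it as a transgene. It was at 422 and 426 CPM in thymus and 434 and 469 CPM in fresh MLN, but at 1.48 and 1.19 CPM in cultured MLN (ENSMUSG00000042745, 319-fold lower, log2 fold change -8.32 ± 0.11 (SE), n = 2 per group). Reads of the transgene and of the mouse gene cannot be told apart. The Id1 level therefore does not check the genotype of the libraries labelled cultured, and directions below are between libraries as labelled. Lck, the T lineage kinase gene whose proximal promoter drives the transgene, was lower too, at 12.7 and 14.9 CPM against 289 and 269 CPM. Id2, the Id protein that innate lymphoid cells need, was higher in cultured cells (1278 and 1236 CPM against 453 and 494 CPM, 2.66-fold). Of the 6 tested members of the E and Id protein list, 2 were higher (Id2 and Id3) and 4 lower (Id1 and the E protein genes Tcf3, Tcf4 and Tcf12). Among the E protein genes Tcf12, which encodes HEB, differed most, at 71.9 and 65.1 CPM in cultured cells against 169.5 and 159 CPM in thymus (2.40-fold lower), whereas Tcf3 and Tcf4 were 1.43-fold and 1.23-fold lower.

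The first question was how alike the groups were in cell cycle genes. Mki67, the nuclear antigen of cycling cells, was at 580.0 and 600.2 CPM in cultured MLN, 709.8 and 616 CPM in thymus, and 22.5 and 19.0 CPM in fresh MLN. The cultured libraries lay just under the thymus libraries and the difference was not called (log2 fold change -0.17, edgeR adjusted p = 0.099). Summed over 36 genes of G2 phase and mitosis, the level was 2742 and 2970 CPM in cultured MLN, 3005 and 2890 CPM in thymus, and 209 and 198 CPM in fresh MLN. Cultured and thymus sums overlapped and were 14.1 and 14.5 times the fresh MLN sum. The sum over 34 genes of S phase and DNA replication was 2192 and 2394 CPM in cultured MLN and 2848 and 2734 CPM in thymus. Here the cultured libraries were lower, at 0.822 times the thymus level, and still 3.22 times the fresh MLN level.

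**Figure D1:**
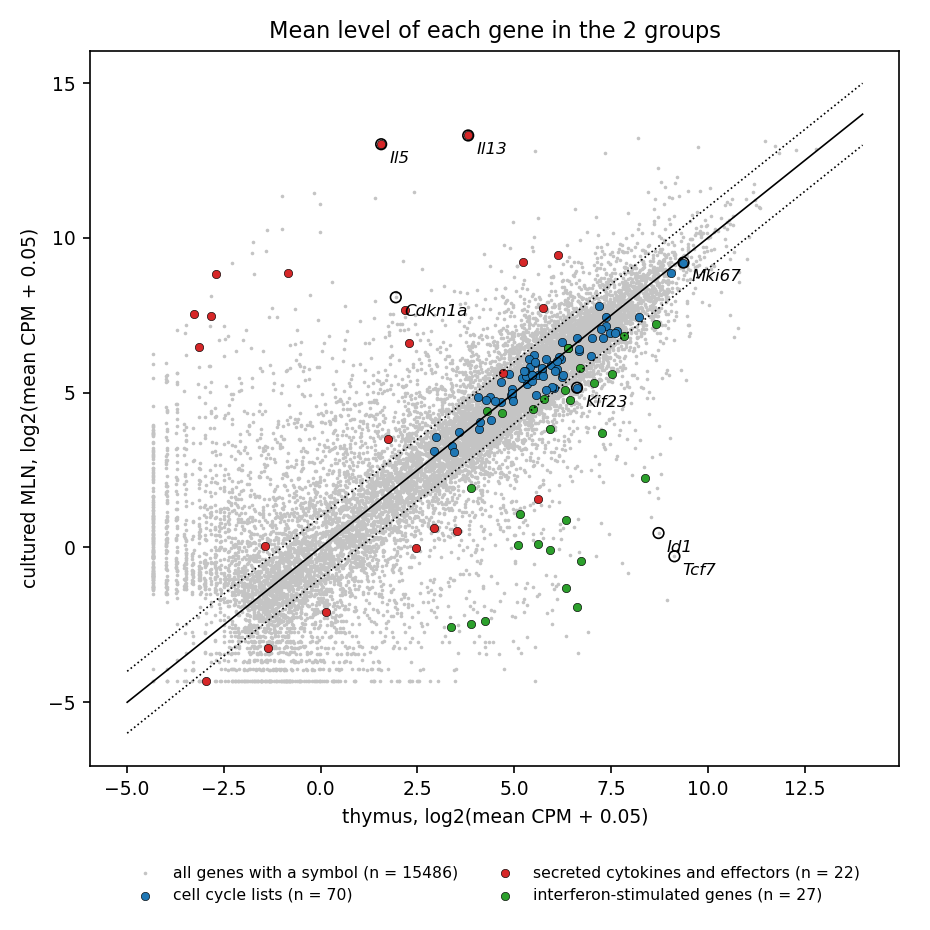
Mean level in cultured MLN (vertical axis) against thymus (horizontal axis), both as log2(mean CPM + 0.05) of 2 libraries, for 15486 tested genes with a symbol; the solid line marks equal levels and the dotted lines 2-fold differences. Cell cycle genes (blue) lie along the solid line, secreted products (red) mostly above it, and interferon-stimulated genes (green) mostly below it; 7 genes are ringed and labelled.

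Taking both cell cycle lists as 70 genes, 42 were called (60%, against 72.7% of all genes tested), 19 higher and 23 lower. Their absolute log2 fold changes had a median of 0.271, against 0.684 over all genes tested. Each of the 70 reached at least 8.62 CPM in its higher group. Among all genes with at least 5 CPM in the higher group, the median was 0.57 and 80% were called. For 43 of the 70 genes (61.4%) the 95% interval of the fold change lay within 1.5-fold in either direction, against 25.8% of all genes tested and 36.5% of the 11169 genes with at least 5 CPM in the higher group. The test against a 2-fold change called 1 of the 70 (1.43%, against 25.2% of those 11169 genes). That gene was Kif23, a motor of the cleavage furrow, with 34.5 and 37.0 CPM in cultured cells and 99.6 and 97.3 CPM in thymus (2.75-fold lower). Cell cycle transcripts thus sat closer together between the groups than most genes did, without being equal.

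S phase genes that were called were mostly lower, and genes of G2 and mitosis were split. Of the S phase genes 4 were higher in cultured cells and 14 lower, with a median log2 fold change of -0.11. The 6 subunits of the MCM2-7 replicative helicase were all lower, with log2 fold changes from -0.80 in Mcm6 (157 and 189 CPM against 302 and 299 CPM) to -0.23 in Mcm2. Pola1, the catalytic subunit of DNA polymerase alpha, was 1.81-fold lower. The 4 higher genes acted at entry into S phase or in nucleotide supply: cyclin E1 (Ccne1, 1.72-fold), E2f1 (1.66-fold), the ribonucleotide reductase subunit Rrm2 (1.53-fold) and the phosphatase gene Cdc25a (1.33-fold). Of the genes of G2 and mitosis 15 were higher and 9 lower, with a median of 0.08, against 34.8% higher and 37.8% lower over all genes tested. Cdk1, the mitotic kinase, was at 71.9 and 78.7 CPM against 45.03 and 46.54 CPM (1.65-fold), and Ube2c and Aurka were each 1.63-fold higher. With library totals alone as scaling, 3 S phase genes were higher and 22 lower, and 5 genes of G2 and mitosis were higher and 17 lower, so the excess of higher mitotic genes turned with that scaling.

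Regulators of G1 had a median absolute log2 fold change of 0.398, against 0.277 in the S phase list and 0.270 in the G2 and mitosis list. All of these were under the 0.684 of all genes tested, and Cdkn1a stood out. The CDK inhibitor gene Cdkn1a, which encodes p21, was at 272 and 271 CPM in cultured MLN and at 4.12 and 3.46 CPM in thymus (ENSMUSG00000023067, 71.4-fold higher, log2 fold change 6.16 ± 0.10 (SE)). Fresh MLN cells had 1.88 and 2.44 CPM, so the cultured libraries stood apart from both groups of uncultured cells. Myc, a growth regulator, was 2.18-fold higher (179 and 183 CPM against 81.7 and 84.7 CPM), while its relative Mycn was 2.15-fold lower. The retinoblastoma relative Rbl1 (p107) was 2.18-fold lower, cyclin D2 (Ccnd2) 1.44-fold higher, and Cdk4 had a log2 fold change of 0.00 with a 95% interval from -0.15 to 0.15. In total, 6 of the 17 tested genes of this list were higher and 5 lower, close to the 34.8% higher and 37.8% lower of all genes tested.

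**Figure D2:**
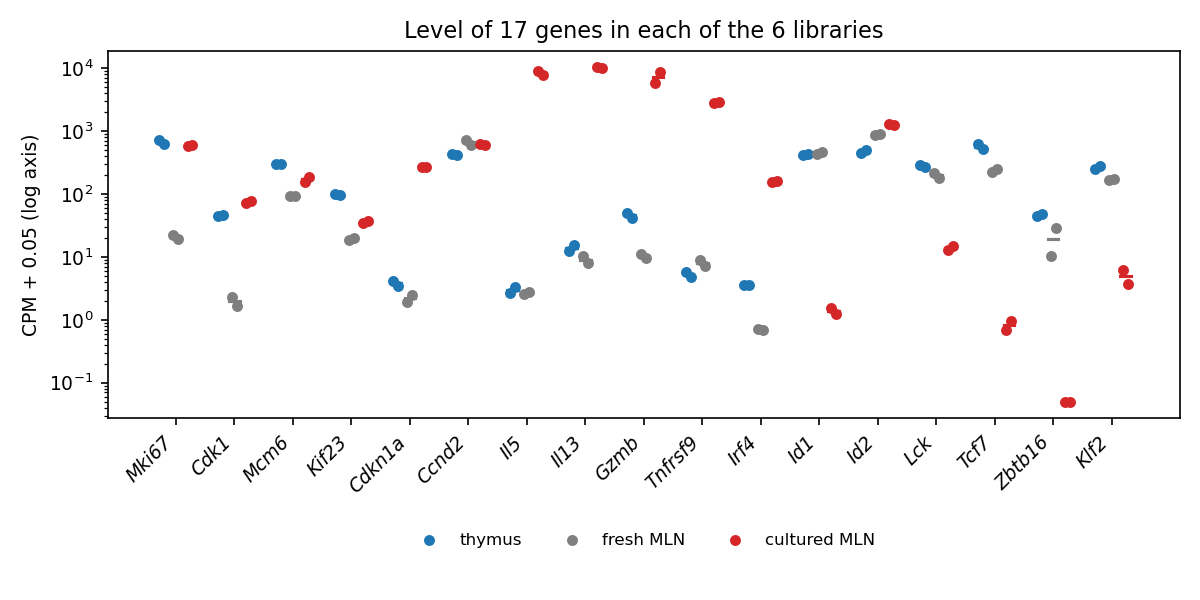
Level of 17 genes as CPM + 0.05 on a log axis in each library; points are libraries, bars are the means of 2 libraries, and colours give thymus (blue), fresh MLN (grey) and cultured MLN (red). Mki67 lies close in thymus and cultured MLN, Il5 and Il13 are high in cultured MLN alone among the 3 groups, and Id1, Lck, Tcf7, Zbtb16 and Klf2 are low there.

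Secreted products summed to 22500 and 21110 CPM in cultured MLN and 277 and 308 CPM in thymus, and the cultured sum was mostly Il13 and Il5. Il13 (ENSMUSG00000020383) was at 10278 and 10071 CPM in cultured MLN and 12.4 and 15.6 CPM in thymus, a 729-fold difference (log2 fold change 9.51 ± 0.15 (SE)). Il5 (ENSMUSG00000036117) was at 8988 and 7739 CPM against 2.59 and 3.22 CPM, a 2886-fold difference (11.49 ± 0.15). Thymus cells, with cell cycle genes as high, had levels of both genes near those of fresh MLN, which were 10.1 and 7.97 CPM for Il13 and 2.52 and 2.68 CPM for Il5. Of 22 tested members of the list of ILC2 products 15 were higher, 7 lower, and the median log2 fold change was 2.68.

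Further products of the list were near absence in thymus. Penk, the enkephalin precursor gene, was at 415 and 495 CPM against 0.0986 and 0.106 CPM. Il9 was at 221 and 153 CPM against 0 and 0.106 CPM, and Il10, an inhibitory cytokine gene, at 180.2 and 176 CPM against 0.0493 and 0.133 CPM. The epidermal growth factor relative Areg, linked to tissue repair, was at 430.3 and 496 CPM against 0.542 and 0.479 CPM (899-fold). Smaller differences in the same list were those of Il4 and Calca: Il4 was 1.88-fold higher (49.0 and 49.9 CPM against 25.9 and 26.8 CPM), and Calca, which encodes the neuropeptide CGRP, was 4.05-fold higher. Products that were lower included Tnfsf11 (RANKL, 2.75 and 3.12 CPM against 49.0 and 48.9 CPM), Csf1 (8.09-fold lower) and Tnf (4.96-fold lower). The list therefore held products on both sides of the contrast.

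Genes of granules and of the cell surface showed large differences of the same kind. Gzmb, the granzyme B protease gene, was at 5752 and 8625 CPM in cultured cells and 50.5 and 42.1 CPM in thymus (155-fold higher). Of 10 tested genes for granzymes, perforin and their partners, 7 were higher and 3 lower; Nkg7 was 19.0-fold lower, at 4.47 and 6.56 CPM against 101 and 109.7 CPM. Mcpt8, a protease gene of the same family known from basophils, was at 588 and 866 CPM against 0.246 and 0.239 CPM. Cpa3, a mast cell carboxypeptidase gene, ran the other way, at 0.0905 and 0.110 CPM against 117 and 121 CPM. Of 7 tested mast cell and basophil markers 5 were higher and 2, Cpa3 and Kit, lower. Over all genes tested 34.8% were higher and 37.8% lower. Among the higher ones Mcpt1 had 722 counts over cultured MLN and 0 over thymus. Mast cell and basophil markers summed to 945 and 1191 CPM against 819.6 and 836 CPM, but through different genes. Mcpt8 made most of the cultured sum. Kit made most of the thymus sum, at 698 and 710 CPM against 170 and 187 CPM in cultured cells. The receptor genes Fcer1a and Ms4a2 had between 0 and 4 counts in each of these 4 libraries, and the part of such cells was not tested. Granzyme and mast cell protease genes lie in a family of similar sequences, and how reads shared by copies were counted is not given in the sources used here.

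Receptors of the inhibitory and TNF receptor families were higher in 10 of 18 genes and lower in 6, against 34.8% and 37.8% over all genes tested. Tnfrsf9 (4-1BB), a co-stimulatory receptor gene, was at 2831 and 2922 CPM against 5.72 and 4.79 CPM (546-fold). The checkpoint receptor genes Havcr2 (TIM-3), Lag3, Ctla4 and Tigit were 177-fold, 81.2-fold, 38.9-fold and 19.8-fold higher. Pdcd1 (PD-1), another checkpoint receptor gene, was 7.20-fold lower, at 26.1 and 14.6 CPM against 153 and 139 CPM. Fresh MLN cells had 22.4 and 22.1 CPM of Pdcd1, so its level in thymus was the high one of the 3 groups.

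The receptors for the culture cytokines did not move as one. Il7r was 1.68-fold lower in cultured cells (869 and 835 CPM against 1412 and 1448 CPM). Il17rb, the IL-25 receptor gene, was 14.7-fold lower (118 and 106 CPM against 1656 and 1649 CPM), and its partner Il17ra 2.10-fold lower. Jak3, the kinase of the IL-7 receptor, was 3.22-fold higher. Over this list of 16 receptor and proximal signalling genes 4 were higher and 9 lower, with a median log2 fold change of -0.23.

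Targets of STAT5 and feedback regulators were mostly higher, with 11 of 15 higher, 4 lower and a median log2 fold change of 1.39. Socs3, an inhibitor of cytokine receptors, was at 714 and 705 CPM against 16.4 and 20.6 CPM (38.4-fold). Il2ra, the IL-2 receptor alpha chain gene, was at 7901 and 7761 CPM against 892 and 839 CPM (9.05-fold), and Pim2, a survival kinase gene, was 13.9-fold higher. Bcl2, a survival gene of resting lymphocytes, was 9.58-fold lower (24.3 and 22.8 CPM against 202 and 249.9 CPM), while its relative Bcl2l1 was 3.86-fold higher. The NF-kB list had no common direction, with 9 of 20 higher, 7 lower and a median of 0.01. Over all genes tested 34.8% were higher and 37.8% lower. Ier3, Bcl3 and Traf1 were 41.8-fold, 17.8-fold and 6.60-fold higher, and Nfkb1 itself 2.48-fold lower.

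One promoter sequence is shown for each of 4 gene groups, as examples of where a searched motif lies; they were chosen after the matches and values were seen. The sequences are the 250 bases before the RefSeq gene start on GRCm38.p6, read 5′ to 3′ on the gene's strand, and capitals mark the motif searched. They are Hspa5 (chr2:34771840-34772089, plus strand) with an ER stress element, Asns (chr6:7693210-7693459, minus strand) with an ATF4 element, Ifit1 (chr19:34640639-34640888, plus strand) with 2 matches to the interferon-stimulated response element, both on the opposite strand, and Socs3 (chr11:117969367-117969616, minus strand) with a STAT element.
Hspa5: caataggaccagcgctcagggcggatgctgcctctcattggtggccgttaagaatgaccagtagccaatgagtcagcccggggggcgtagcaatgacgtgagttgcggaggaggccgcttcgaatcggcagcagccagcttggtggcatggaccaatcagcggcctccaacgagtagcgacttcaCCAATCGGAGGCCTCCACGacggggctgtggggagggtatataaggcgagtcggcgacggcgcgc
Asns: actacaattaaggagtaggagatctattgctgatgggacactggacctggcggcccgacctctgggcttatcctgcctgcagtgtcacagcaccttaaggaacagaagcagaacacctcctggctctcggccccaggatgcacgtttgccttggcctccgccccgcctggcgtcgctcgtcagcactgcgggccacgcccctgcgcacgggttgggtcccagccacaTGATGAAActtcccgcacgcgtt
Ifit1: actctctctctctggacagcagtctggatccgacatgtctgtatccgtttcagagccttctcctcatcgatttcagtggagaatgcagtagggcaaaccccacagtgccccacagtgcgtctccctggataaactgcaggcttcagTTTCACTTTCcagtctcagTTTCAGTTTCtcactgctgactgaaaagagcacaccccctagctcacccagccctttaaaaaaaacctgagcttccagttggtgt
Socs3: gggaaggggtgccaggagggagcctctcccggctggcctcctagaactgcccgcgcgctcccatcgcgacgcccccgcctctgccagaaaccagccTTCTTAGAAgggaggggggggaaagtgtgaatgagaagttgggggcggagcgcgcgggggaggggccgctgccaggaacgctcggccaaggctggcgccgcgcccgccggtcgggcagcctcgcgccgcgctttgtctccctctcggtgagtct

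Both strands of every RefSeq mouse promoter of this length were searched, 32851 in all, with overlapping matches counted as one promoter. The ER stress element (CCAAT, any 9 bases, CCACG) was in 7 of 19 promoters of the ER list (36.8%) and in 0.113% of all promoters. The interferon element (GAAA, any 2 bases, GAAA) was in 10 of 25 promoters of its list (40%) and in 2.98% of all, and the ATF4 element TGATGNAA in 4 of 22 (18.2%) and 3.45%. The hypoxia element ACGTG was in 11 of 28 glycolysis promoters (39.3%) and 16.6% of all, the STAT element TTCNNNGAA in 1 of 16 (6.25%) and 7.02%, and the sterol element TCACNCCAC in 0 of 15 and 1.05%. A gene with several starts entered with several promoters, and overlapping promoters of a gene were not merged. The 28 glycolysis promoters came from 18 genes. Aldoa and Pfkfb3 each counted more than once among the 11, Aldoa with the same site. A match is a description of these letters in this window, not a site of binding. The lists were written from textbook knowledge, partly as known targets of these factors. Their shares therefore describe the choice of genes and are no result of these libraries.

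Genes of the secretory route were higher almost throughout. Hspa5, the ER chaperone BiP whose promoter is shown, was at 2182 and 2168 CPM against 459 and 478 CPM (4.64-fold). Sdf2l1 and Manf, both induced when unfolded protein builds up in the ER, were 7.70-fold and 6.41-fold higher. Of 23 genes of ER machinery and the unfolded protein response 22 were higher and 0 lower (22 and 1 with library totals alone) at a median log2 fold change of 1.96. The remaining gene, Dnajc3, was at 323 and 325 CPM against 299 and 305 CPM and was not called, although its promoter held the same element. Furin, the protease that cleaves precursor proteins in the Golgi and among the most abundant genes of these cells, was at 9652 and 9462 CPM against 294 and 293 CPM (32.5-fold).

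Metabolic genes moved in separate groups. Glycolysis genes were higher in 18 of 19 cases, with a median of 2.45: the glucose transporter gene Slc2a3 was at 1449 and 1492 CPM against 31.4 and 31.2 CPM (47.0-fold), the lactate exporter gene Slc16a3 was 16.4-fold higher, and Ldha 3.30-fold. The lower one was Pdk1, which restrains the use of pyruvate inside mitochondria (81.1 and 82.2 CPM against 125 and 126 CPM). Sterol synthesis genes were higher in 20 of 20, with a median of 2.38: Insig1, a sensor of sterol level, was at 231 and 231 CPM against 13.2 and 11.2 CPM, and the enzyme gene Lss, lanosterol synthase, was at 287 and 277 CPM against 28.2 and 23.0 CPM. Of the fatty acid genes 16 of 25 were higher and 3 lower, led by the desaturase gene Scd1 (293 and 283 CPM against 0.912 and 0.638 CPM, 368-fold); with library totals alone 14 were higher and 9 lower.

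Amino acid genes were higher in 19 of 21 and lower in 0 (18 and 1 with library totals alone), with a median of 1.20. Asns, asparagine synthetase, whose promoter is shown, was at 103 and 105 CPM against 0.173 and 0.0532 CPM (880-fold). Chac1 had 1 count over both thymus libraries and 827 over cultured MLN, a ratio of 931 on CPM with a 95% counting interval from 167 to 36833. Slc38a2, a transporter gene with high counts in both groups, was not called (303 and 298 CPM against 255 and 283 CPM). In contrast with these lists, genes of oxidative phosphorylation and of ribosome biogenesis differed little. The former had 14 of 23 higher and 3 lower with a median of 0.24, and the latter 9 of 20 higher and 3 lower with a median of 0.14. With library totals alone these splits became 6 higher and 8 lower, and 4 higher and 9 lower, so the direction of both lists turned with that scaling.

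**Figure D3:**
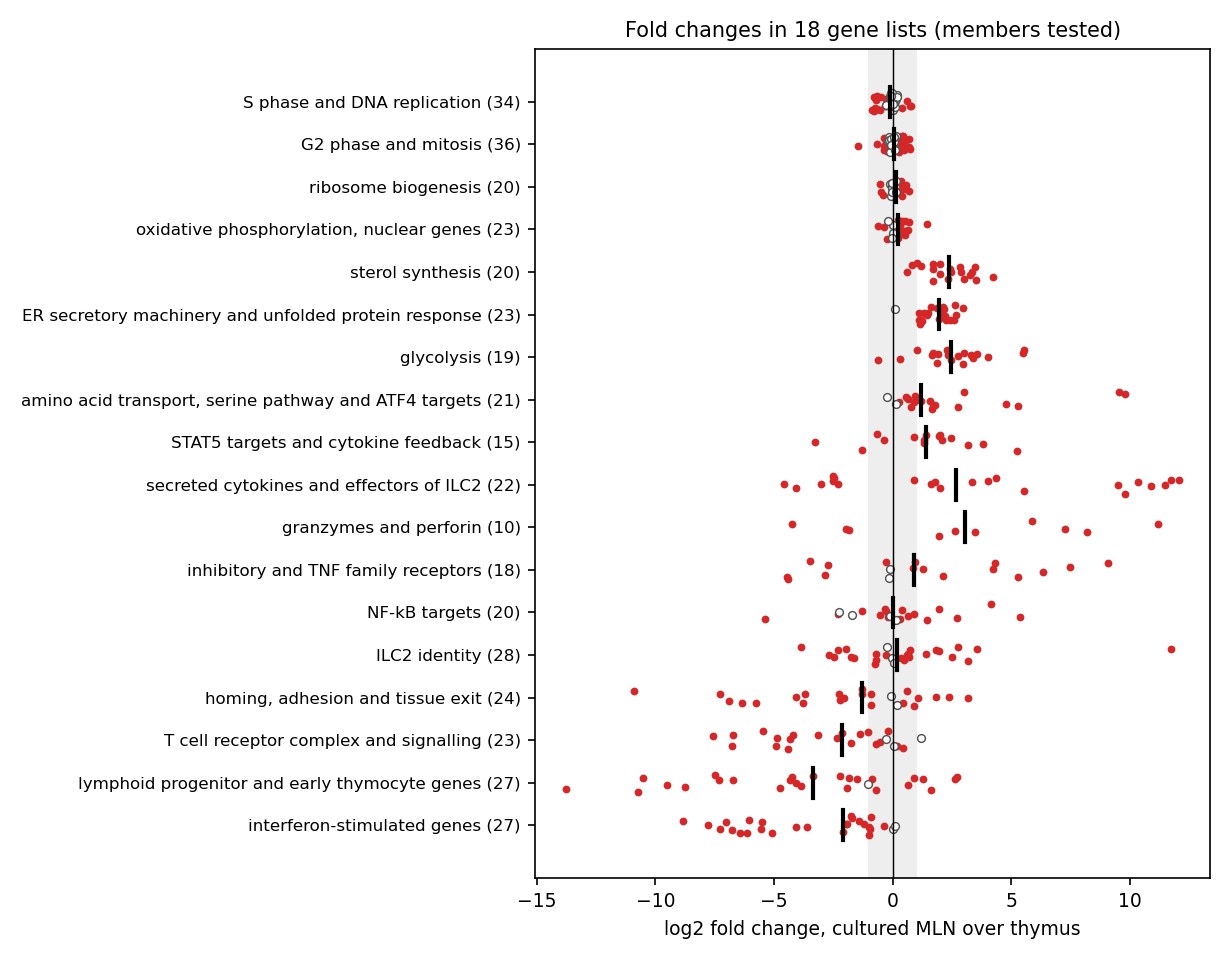
Log2 fold change (cultured MLN over thymus, horizontal axis) of each tested member of 18 gene lists (rows, number tested in parentheses); red points were called, open points were not, black bars are medians and the grey band spans 2-fold. The cell cycle, ribosome biogenesis and oxidative phosphorylation lists lie inside or near the band, sterol, ER, glycolysis and amino acid lists to the right, and progenitor, T cell receptor and interferon lists to the left.

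Transcription factors of effector lymphocytes were higher in 15 of 26 and lower in 10, against 34.8% higher and 37.8% lower over all genes tested. Irf4, a factor of activated lymphocytes, was at 155 and 160.1 CPM against 3.50 and 3.54 CPM (44.7-fold). Its partner Batf was 5.38-fold higher, Zeb2 16.1-fold, and Nfil3, needed early in the ILC lineage, 14.1-fold. Bach2, a repressor linked to quiescent lymphocytes, was at 0.422 and 0.386 CPM against 25.1 and 21.6 CPM (57.4-fold lower). The ILC2 identity list was mixed, with 14 of 28 higher, 11 lower and a median of 0.20, beside the same shares over all genes tested. Within it Tph1, the enzyme gene of serotonin synthesis, was at 3001 and 2615 CPM against 0.542 and 1.14 CPM, whereas Rora, which ILC2 need to develop, was 4.92-fold lower (163 and 129 CPM against 809 and 626 CPM).

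Genes of lymphoid progenitors and early thymocytes marked the thymus side, with 20 of 27 lower in cultured cells, 6 higher and a median log2 fold change of -3.34. Tcf7, the gene of the Wnt and Notch-linked factor TCF-1, was at 613 and 514 CPM in thymus, 220 and 247 CPM in fresh MLN, and 0.634 and 0.910 CPM in cultured MLN (ENSMUSG00000000782, 722-fold lower). Zbtb16, the gene of PLZF in ILC precursors, had 3615 counts over thymus and 0 over cultured MLN, at least 1069.9-fold lower. Bcl11a had 443 counts and 0, at least 131-fold lower. Fresh MLN cells had 10.3 and 28.7 CPM of Zbtb16, a wide spread, and 0.283 and 0.106 CPM of Bcl11a, so Bcl11a was low in both MLN groups and Zbtb16 in the cultured libraries alone. The Notch target Dtx1 was 105-fold lower and Hes1 3.75-fold lower, while the receptor genes Notch1 and Notch3 were 1.85-fold and 6.25-fold higher. Myb, a progenitor factor that also accompanies cycling, was at 84.6 and 69.1 CPM in thymus, 19.9 and 23.0 CPM in cultured cells and 0.771 and 0.690 CPM in fresh MLN.

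T cell receptor genes were lower in 18 of 23 and higher in 2, with a median of -2.12. Trbc1, the constant region of the beta chain, was at 408 and 424 CPM in thymus and 3.65 and 3.89 CPM in cultured MLN (110-fold lower), and Tcrg-C1 of the gamma chain was 188-fold lower. Fresh MLN cells had 269 and 276 CPM of Trbc1, so this transcript was not particular to the thymus. Trac, the alpha constant region, was under 0.5 CPM in all 6 libraries. The adaptor gene Lcp2, shared by many immune receptors, differed by a log2 fold change of 0.04 (403 and 400.1 CPM against 382 and 396 CPM). Markers of double-positive thymocytes were lower in 9 of 9 tested; their sum was 70.9 and 68.3 CPM in thymus, 49.65 and 49.95 CPM in fresh MLN and 7.94 and 8.85 CPM in cultured cells. Most of the thymus sum was Cd1d1 (31.8 and 33.8 CPM) and Arpp21 (22.2 and 18.5 CPM). Of the defining genes of these thymocytes, Ptcra had 0 counts over thymus and Rag1 was at 0.764 and 0.293 CPM. The part of such cells in the lower levels was not tested. The constant regions of the receptor chains have near-identical copies, so their counts are uncertain.

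Genes of homing and tissue exit were lower in 15 of 24 and higher in 7, with a median of -1.30. Klf2, the factor that drives S1pr1, was at 248 and 283 CPM in thymus and 6.25 and 3.72 CPM in cultured cells (53.6-fold lower), and S1pr1, the receptor for leaving tissue, 13.7-fold lower. Ccr9, a thymus and gut homing receptor gene, was at 58.1 and 54.4 CPM in thymus, 335 and 269 CPM in fresh MLN and 0.694 and 0.276 CPM in cultured MLN. The gut integrin subunit gene Itga4 was 4.66-fold lower, while its partner Itgb7 had a log2 fold change of -0.06 (1169 and 1204 CPM against 1163 and 1304 CPM) and was not called. Cd69, which retains lymphocytes in tissue, was 3.56-fold higher.

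Interferon-stimulated genes were lower in 25 of 27 and higher in 0, with a median of -2.11. Oas2, an antiviral enzyme gene, was at 96.6 and 101 CPM in thymus and 0.151 and 0.276 CPM in cultured MLN (451-fold lower). Ifit1, whose promoter is shown, was at 46.0 and 74.7 CPM against 0.573 and 1.21 CPM (66.3-fold lower), and Irf7 was 12.01-fold lower. The 2 genes not called, Bst2 and Gbp3, had log2 fold changes of 0.04 and 0.11, and both promoters held the same element. Summed over the list, the level was 2468 and 2731 CPM in thymus, 674 and 706 CPM in cultured cells and 7800.0 and 7849 CPM in fresh MLN, so thymus cells stood between the MLN groups.

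**Figure D4:**
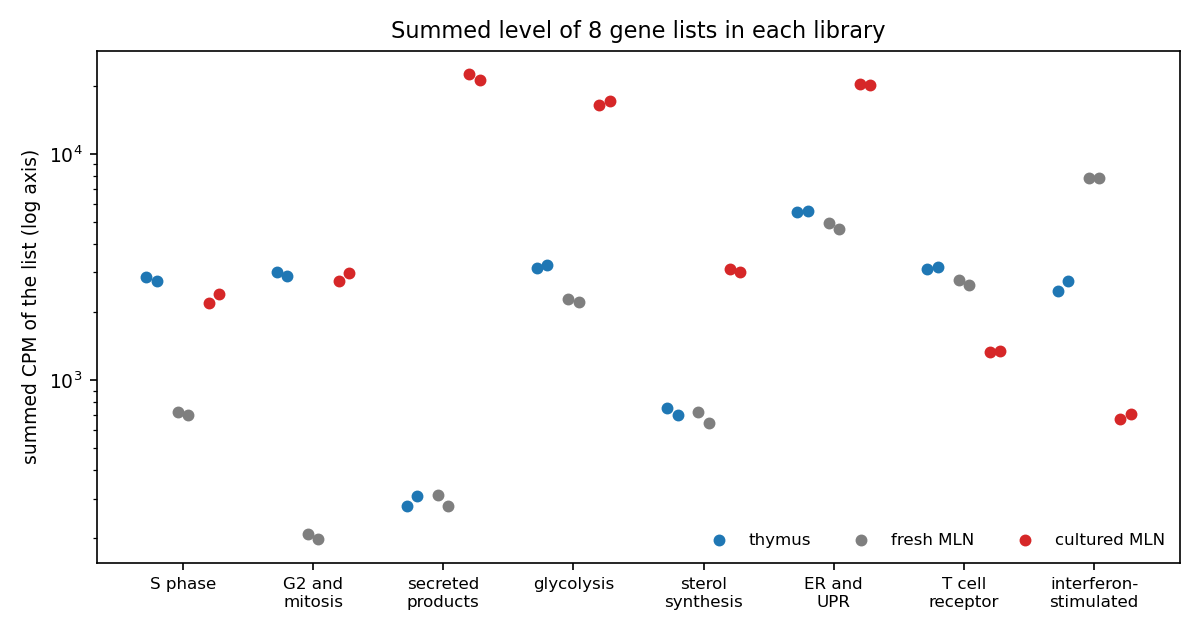
Summed CPM (log axis) of all members of 8 gene lists in each library of thymus (blue), fresh MLN (grey) and cultured MLN (red). In the G2 and mitosis list the cultured and thymus libraries overlap between 2742 and 3005 CPM, and in the lists of secreted products, glycolysis, sterol synthesis and ER genes the cultured libraries lie above both other groups.

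Genes of other innate lymphoid cells were lower in 13 of 16 and higher in 3. Ltb, a lymphotoxin gene of ILC3 and lymphoid tissue inducers, was at 360.3 and 394 CPM in thymus against 6.61 and 8.63 CPM. Il22, an ILC3 cytokine gene, ran the other way at 104 and 72.5 CPM in cultured cells against 0.0986 and 0.0266 CPM. Tbx21 and Eomes, the factors of ILC1 and NK cells, were under 1 CPM in the 4 libraries of the contrast. Il22 and Ltb, both products of ILC3, thus differed in opposite directions.

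Markers of other cell types were low in level for the most part. B cell markers summed to 118 and 131 CPM in cultured cells and 74.8 and 82.1 CPM in thymus, most of it Ighm and Cd79b, with Ms4a1 between 0 and 1 counts per library. Of 12 tested macrophage markers 7 were lower and 4 higher, with a median of -1.78. Their sum was 708 and 743 CPM against 229 and 263 CPM through Ctsb and Cst3, protease and inhibitor genes that many cells use, while Csf1r and Lyz2 were under 3 CPM in these 4 libraries. Dendritic cell markers summed to 44.4 and 39.7 CPM against 11.9 and 14.8 CPM, mostly Xcr1. Of 11 tested NK cell markers 9 were lower in cultured cells, with a median log2 fold change of -4.25 (-3.14 with genes at 0 counts set to their bound), and 2, Gzma and Prf1, were higher. Their sum nevertheless was 147 and 249.8 CPM against 59.3 and 57.2 CPM, mostly those 2 genes, with Ncr1 and Klrb1c under 3 CPM. Thymic epithelial markers summed to 9.69 and 11.6 CPM against 5.64 and 6.54 CPM, with 0 to 1 counts of Foxn1 per library, and granulocyte and erythroid markers to under 14 CPM per library. Stromal and endothelial markers, mostly Pecam1, summed to 164 and 163 CPM against 194 and 187 CPM.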

How the data were processed

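Messenger RNA of 6 libraries was sequenced from a stranded kit, per the labels. The deposited files hold, per library, the raw count of reads for each of 37991 Ensembl genes, without normalization by the authors. Per the submitters' processing notes, which list HTSeq 0.5.3p9 and, as builds, mm9 and NCBIM37, reads were counted per gene. Which aligner, annotation release and strand option were used is not given in the sources used here, so overlapping genes and near-identical copies are uncertain. Symbols were matched by identifier to GENCODE M21 (32919 identifiers matched). Promoters came from RefSeq tables on GRCm38.p6, a build other than that of the counts.

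In R 4.3.3, edgeR 4.0.16 was used with filterByExpr (16231 of 23871 genes with a count kept), TMM factors from 0.894 to 1.07, 1 mean per group over all 6 libraries, and the two-sided quasi-likelihood F test, with 3 residual degrees of freedom. An SE is the log2 fold change over the square root of F, and can be too small where the lower group has few counts. A fold against 0 counts is a lower bound with 3 counts over the group, and 1 to 3 counts gave an exact 95% counting interval; these cover counting error only. With 2 libraries against 2, a permutation of 1 value cannot reach p = 0.05. The test was also run on simulated data in which few genes differed, in random directions, with the same spread for all genes. That setting is unlike this contrast, where 72.7% of genes were called, and it does not check the scaling.

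The comparison and the 39 gene lists (716 entries) were chosen with earlier results of these data known. Named genes were the 10 highest and 10 lowest called fold changes at 10 CPM or more, up to 3 called members per list at 5 CPM or more with the most abundant member, the 2 most abundant markers of other cell types, up to 5 abundant genes with 4-fold differences, and a fixed set (such as Id1, Gata3 and Mki67). Other list members are named as examples chosen after their values were seen. Alternatives were other scalings, filters, DESeq2 1.42.0, the 2-fold test, a replicate block, fewer libraries or genes. A few of the genes so named are not reported here.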

Additional observations from a re-analysis of the deposited data

How the results depend on the processing

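The count of genes called stayed within 1.5 times its value of 11793 with RLE or upper-quartile factors, scaling to the cell cycle genes, library totals, no filter, a 5 CPM filter, DESeq2, the fit to 4 libraries and the fit without cell cycle genes. The 2-fold test called 4455 genes (2429 higher, 2026 lower), fewer because its null is a larger difference, and 1 of the 70 cell cycle genes (0 higher, 1 lower). With library totals alone 8 cell cycle genes were higher and 39 lower, against 19 and 23; the cause was not tested. Leaving out 1 library at a time gave 10559 to 11994 called genes, 5082 to 5784 higher and 5477 to 6212 lower. Pecam1 turned with library totals alone (log2 fold change -0.0779, against 0.18). Deviations of same-numbered libraries from their group means correlated with r = 0.021 between cultured MLN and thymus. The value was 0.034 between cultured and fresh MLN, and 0.115 between thymus and fresh MLN. With 2 libraries per group, these values cannot show whether same-numbered libraries were paired. A replicate block called 11944 genes. Of 145 called named genes 141 were called with library totals, 144 with DESeq2, 115 in the 2-fold test, and 142 to 145 without 1 library.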

Other observations

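Across the gene table, 18 genes had 0 counts over thymus and at least 10 CPM in cultured MLN, and 2 genes, Zbtb16 and Cd163, the reverse. Sema3e, a secreted guidance factor gene, was at 74.6 and 78.1 CPM in cultured cells and had 0 counts in thymus, at least 1992-fold higher. Prss35, a gene of a serine protease family member, was at 53.2 and 68.4 CPM (at least 1592-fold), and Scn7a, of the sodium channel family, at 40.6 and 47.5 CPM (at least 1152-fold). Egfr, the receptor that amphiregulin binds, was at 16.7 and 14.1 CPM in cultured cells with 0 counts in thymus. Csn1s1, a milk casein gene, was at 2727 and 2555 CPM against 0.370 and 0.532 CPM (5853-fold). On the thymus side Cd163, a scavenger receptor gene, was at 12.5 and 9.76 CPM with 0 counts over cultured MLN, and Samhd1, a nucleotide hydrolase gene, was at 1743 and 1802 CPM against 141 and 134 CPM.

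The smaller lists that follow stand against 34.8% higher and 37.8% lower over all genes tested. Prostaglandin genes had 6 of 12 higher and 4 lower. Ptgs2 (COX-2) and Ptges, which make prostaglandin E2, were 20.8-fold and 18.9-fold higher, and the receptor gene Ptger4 was 17.4-fold lower. MHC class II genes had 7 of 12 higher and 5 lower, with H2-Ab1 11.6-fold higher (55.3 and 66.2 CPM against 5.40 and 5.03 CPM) and H2-Ob 6.82-fold lower. Immediate early genes had 8 of 17 higher and 6 lower; Junb was 6.06-fold higher, Nr4a3 23.6-fold lower, and Fos was at 4.53 and 3.25 CPM against 4.66 and 4.07 CPM. Heat shock genes had 7 of 12 higher and 4 lower, and with library totals alone 4 higher and 5 lower. Of 13 listed transcripts of the mitochondrial genome 7 were tested, with 0 higher, 4 lower and a median log2 fold change of -0.26. The others had too few counts: mt-Co2 and mt-Co3 had 0 to 2 per library, although mt-Co1 was at 7992 and 7119 CPM in cultured cells. The cause was not tested, and the median covers the tested genes alone.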
